A study of Mus musculus with 4 samples.

Results

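Tal1 (also called Scl), Lyl1, Lmo2, Ldb1, Tcf3 (E2A) and Cbfa2t3 (Eto2) encode the subunits of a transcription factor complex of early blood and vessel cells. These 6 genes were chosen by name, with earlier results of these data known. Every non-control probe whose RefSeq accession mapped to one of them was read. This gave 9 probes out of 55681 and 6 genes out of the 20660 named on the array. Tcf3 had 2 probes, Cbfa2t3 had 3 and each of the others had 1. The cells were mouse embryonic stem cells of the EB5 line that carried an introduced red fluorescent protein (RFP) reporter of Hoxb6. Differentiation ran for 6 days on OP9 stromal feeder cells, and Flk-1-positive cells were then sorted into an RFP-positive and an RFP-negative fraction. Flk-1, the product of Kdr, is a VEGF receptor of early mesoderm and endothelium, and the cell line, the reporter, the feeder layer and Flk-1 were shared by both fractions. Each fraction was measured on 2 one-colour arrays. The sources used here do not say whether the reporter line was 1 clone, how the reporter was built or whether the replicates were separate cultures, so the p-values measure only the spread between these arrays, which may be technical.

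Tal1 and its relative Lyl1 are basic helix-loop-helix proteins that bind E-box DNA together with an E protein such as the products of Tcf3. Lmo2 has no DNA contact of its own and bridges this pair to Ldb1, which in turn dimerises and can hold distant sites together, and a GATA factor often completes the complex on DNA. Cbfa2t3 joins as a corepressor and holds target genes back until blood cells mature. Mice without Tal1 or Lmo2 make no blood, and Tal1 is first needed in Flk-1-positive mesoderm. The cells sorted here were Flk-1-positive, which early mesoderm and endothelium share.

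Transcripts of all 6 genes were found in both fractions, and no difference passed the threshold. The scanner software marked 8 of the 9 probes, with at least 1 for each gene, as well above background on all 4 arrays. With limma and Benjamini-Hochberg adjustment over 13433 genes, 0 of the 6 genes passed an adjusted p of 0.05, as did 0% of all genes tested. At an unadjusted p under 0.05 there was 1 of the 6 genes, Cbfa2t3, against 6.49% of all genes. Both RFP-positive arrays lay above both RFP-negative arrays for 2 of the 6, Tal1 and Cbfa2t3, against 18.8% of all genes, and below them for 0 of the 6, against 21.6%. In either direction this is 2 of the 6 beside 40.3%. With 6 genes, neither count can be set apart from those shares. The median difference of the 6, RFP-positive minus RFP-negative, was −0.01 on the log2 scale, and that of all genes tested was −0.05. From RFP-positive replicate 1 alone the median of the 6 was 0.18, and from replicate 2 alone −0.13. All values are on the log2 scale after each array was scaled to the 75th percentile of its signals. Values after ± are SDs of 2 arrays, and intervals are 95% intervals of the limma fit. Since sorted populations were measured in bulk, fewer cells that contain a transcript and less of it per cell cannot be told apart. RFP-positive replicate 2 had the lowest correlations with the other arrays over the genes tested, between 0.950 and 0.964, beside 0.974 to 0.982 among the rest. The part of this array is given with each member. RFP-positive replicate 1 correlated at 0.982 and 0.974 with RFP-negative replicates 1 and 2, above its 0.964 with RFP-positive replicate 2.

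**Figure D1:**
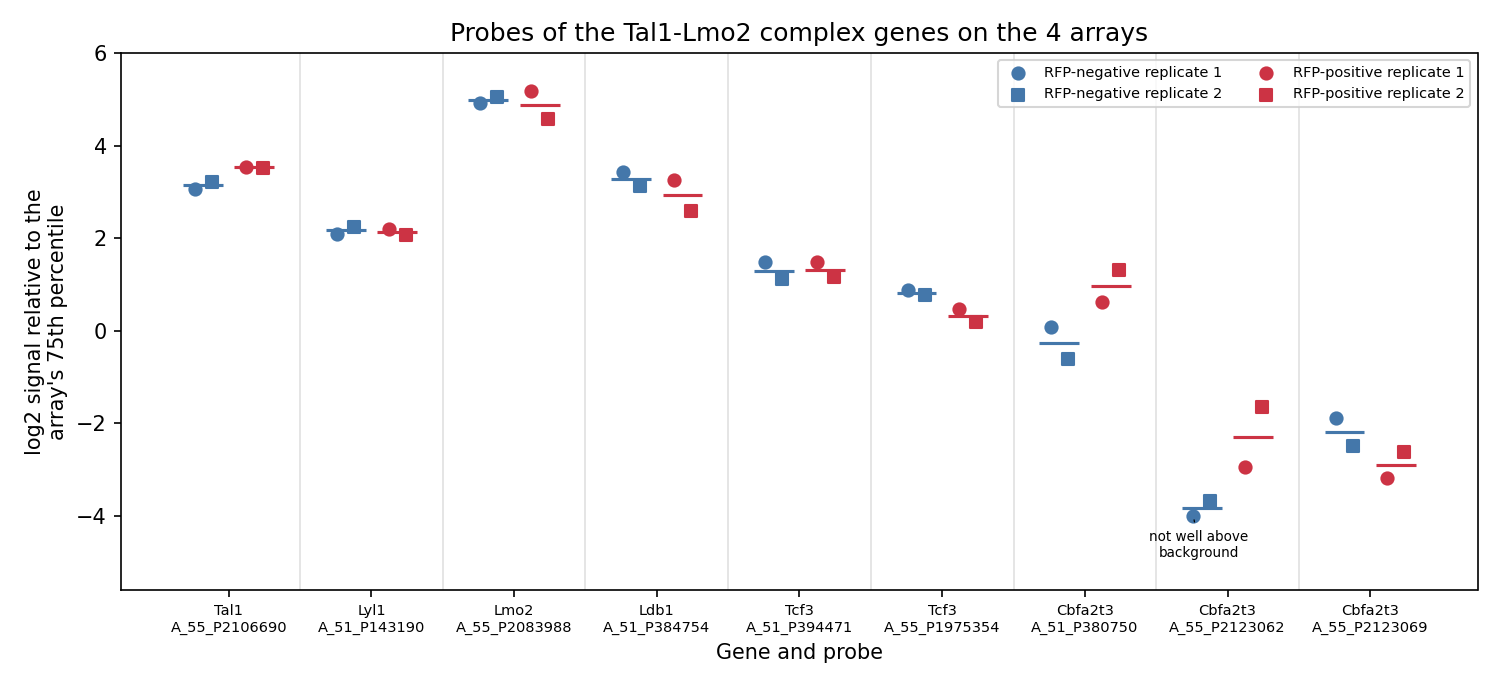
Log2 signal of the 9 probes (x axis) on the 4 arrays after scaling to each array's 75th percentile (y axis). Circles are replicate 1, squares replicate 2 and bars the mean of a fraction. The RFP-positive arrays lie above the RFP-negative arrays for Tal1 and for 2 Cbfa2t3 probes and below them for the third Cbfa2t3 probe and the second Tcf3 probe, and levels of different probes are not comparable with each other.

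Among the DNA-binding subunits, Tal1 was higher in both RFP-positive arrays, by less than the fit could separate from 0. Its probe read 3.06 and 3.21 in RFP-negative cells and 3.54 and 3.51 in RFP-positive cells. The fractions did not overlap, with a gap of 0.30 between the highest RFP-negative and the lowest RFP-positive array. The means were 3.14 ± 0.10 and 3.53 ± 0.02 (SD, n = 2 each), a 1.31-fold higher level in RFP-positive cells. The log2 difference of 0.39 (SE 0.23) had an interval from −0.20 to 0.98 and a limma adjusted p of 0.75. In this fit a 1.98-fold higher and a slightly lower level both lay within the interval. Leaving out 1 array at a time gave differences between 0.32 and 0.46, with 0.41 without RFP-positive replicate 2.

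The start sites of Tal1 are shown because they were searched for DNA words of the complex and its GATA partners. The promoter windows used here (GRCm38.p6) include 2 for the gene on the plus strand, each the 250 bases before a start. These are chr4:115056176-115056425 and chr4:115057561-115057810, given 5′ to 3′. Capitals mark matches on either strand to the E-box word CANNTG and to GATA, and GATATC counts as 2 overlapping GATA matches.
Tal1 window 1: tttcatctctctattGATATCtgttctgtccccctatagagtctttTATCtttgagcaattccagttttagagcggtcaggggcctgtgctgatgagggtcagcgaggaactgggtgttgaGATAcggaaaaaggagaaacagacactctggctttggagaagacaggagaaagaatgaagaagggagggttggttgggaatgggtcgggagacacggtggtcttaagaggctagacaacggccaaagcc
Tal1 window 2: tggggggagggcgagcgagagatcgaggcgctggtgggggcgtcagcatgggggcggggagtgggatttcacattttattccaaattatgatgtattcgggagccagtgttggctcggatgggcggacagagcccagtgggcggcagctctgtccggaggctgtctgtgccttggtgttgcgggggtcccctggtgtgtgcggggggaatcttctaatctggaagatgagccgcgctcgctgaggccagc
Window 1 held 4 GATA matches and 0 E-box matches, and window 2 held 0 of each. Of 32851 windows of this length over all genes, 53.6% had a GATA match and 66.2% an E-box match. A composite of CTG, 8 bases and GATA, searched on both strands and overlapping the GATA matches, occurred once in window 1, that is in 1 of the 9 windows of the complex's genes and in 1.91% of all windows. With 7 bases between CTG and GATA it was in 0 of the 9 and in 2.19% of all. These are letter matches, and binding was not measured.

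Lyl1, the closest relative of Tal1 in this group and able to stand in for it in part, was nearly the same on all arrays. It read 2.09 and 2.25 in RFP-negative cells against 2.20 and 2.06 in RFP-positive cells, so that the RFP-negative arrays enclosed 1 RFP-positive array and lay above the other. The difference was −0.04 (SE 0.23, interval −0.64 to 0.57, limma adjusted p 0.962). The interval runs from 0.640-fold to 1.48-fold, which leaves room for a difference of the size seen for Tal1. Its range over the 4 arrays, 0.19, was the smallest of the 6 genes. The sign turned when the arrays were scaled to their median, at 0.05, and without RFP-positive replicate 2, at 0.03. Lyl1 has 1 promoter window in the table, with 1 E-box and 0 GATA matches.

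Tcf3 encodes the E proteins E12 and E47, which pair with Tal1 or Lyl1, and its 2 probes gave different orders. The probe with the higher signal, matched to NM_011548, read 1.48 and 1.12 in RFP-negative cells against 1.49 and 1.15 in RFP-positive cells. In each fraction replicate 1 was higher than replicate 2 by about the same amount, and the fractions overlapped. The difference was 0.02 (SE 0.27, interval −0.70 to 0.73, limma adjusted p 0.985), and it was 0.19 without RFP-positive replicate 2 and −0.15 without RFP-positive replicate 1. The other probe, matched to NM_001164153, read 0.88 and 0.76 against 0.46 and 0.18. Here both RFP-positive arrays were lower, by a log2 difference of −0.50 (SE 0.26, interval −1.18 to 0.18), with a limma adjusted p of 0.780 over 30519 probes. The mean of both probes differed by −0.24. Both accessions are RefSeq transcripts of Tcf3, and where on the transcripts the probes lie was not analysed here.

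For the bridging subunits Lmo2 and Ldb1 the fractions overlapped, and RFP-positive replicate 2 was the lowest array for both. Lmo2 read 4.91 and 5.06 in RFP-negative cells against 5.17 and 4.58 in RFP-positive cells. The highest and the lowest value were thus both RFP-positive, and the RFP-negative mean was 4.99 ± 0.11 beside an RFP-positive mean of 4.87 ± 0.42 (SD, n = 2 each). The difference was −0.11 (SE 0.30, interval −0.89 to 0.66, limma adjusted p 0.914), and without RFP-positive replicate 2 it was 0.18. Ldb1 read 3.42 and 3.12 in RFP-negative cells against 3.26 and 2.59 in RFP-positive cells. RFP-positive replicate 1 lay between the RFP-negative arrays, and replicate 2 lay below both. The difference was −0.34 (SE 0.32, interval −1.19 to 0.51, limma adjusted p 0.793). Without RFP-positive replicate 2 it was −0.0031, and without RFP-positive replicate 1 it was −0.67.

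Cbfa2t3, the corepressor, had the largest difference of the 6 genes. Its brightest probe, matched to NM_009824, read 0.09 and −0.62 in RFP-negative cells against 0.63 and 1.31 in RFP-positive cells. The fractions did not overlap, with a gap of 0.55. The means were −0.27 ± 0.50 and 0.97 ± 0.48 (SD, n = 2 each), a 2.36-fold higher level in RFP-positive cells. The log2 difference was 1.24 (SE 0.39, interval 0.23 to 2.25, limma p 0.0255, adjusted p 0.745). It was 0.88 without RFP-negative replicate 2 and 1.59 without RFP-negative replicate 1, 0.90 without RFP-positive replicate 2 and 1.58 without RFP-positive replicate 1, and so kept its sign whichever of the arrays was left out. The rule that every pair of arrays differ at least 2-fold was met by 0 of the 6 genes, Cbfa2t3 included, against 0.469% of all genes on the higher and 0.893% on the lower side. At 1.5-fold it was likewise met by 0 of the 6, against 1.51% and 2.42%.

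The 3 Cbfa2t3 probes did not point the same way. Besides the brightest probe, A_55_P2123062 (NM_001109873) read −4.00 and −3.68 against −2.94 and −1.65, again without overlap and with the RFP-positive arrays higher. Its difference was 1.54 (SE 0.49, interval 0.26 to 2.83), with an unadjusted limma p of 0.0274 and an adjusted p of 0.780 over all probes. RFP-negative replicate 1 was not well above background for it, and its raw signals ran from 11.5 to 79.4 beside array 75th percentiles of 183.2 to 249.8. The third probe, A_55_P2123069, matched to the same accession, read −1.89 and −2.50 against −3.19 and −2.62. Both RFP-positive arrays were lower here, with a gap of 0.12 and a difference of −0.71 (SE 0.36, interval −1.65 to 0.24, limma adjusted p 0.780). The difference of the brightest probe exceeded that of the third by 1.95, which was not tested, and the mean of all 3 probes differed by 0.69. Of 3519 genes with at least 2 tested probes, 6.11% likewise had 1 probe higher and another lower without overlap. Cbfa2t3 has 14 RefSeq transcripts in the table used, and how the probes fall on them was not analysed here. Over all 9 probes of the complex, 3 were higher and 2 lower without overlap, against 17.8% and 21.6% of all probes tested. At an unadjusted p under 0.05 there were 2 of the 9, both of Cbfa2t3, against 6.21%.

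**Figure D2:**
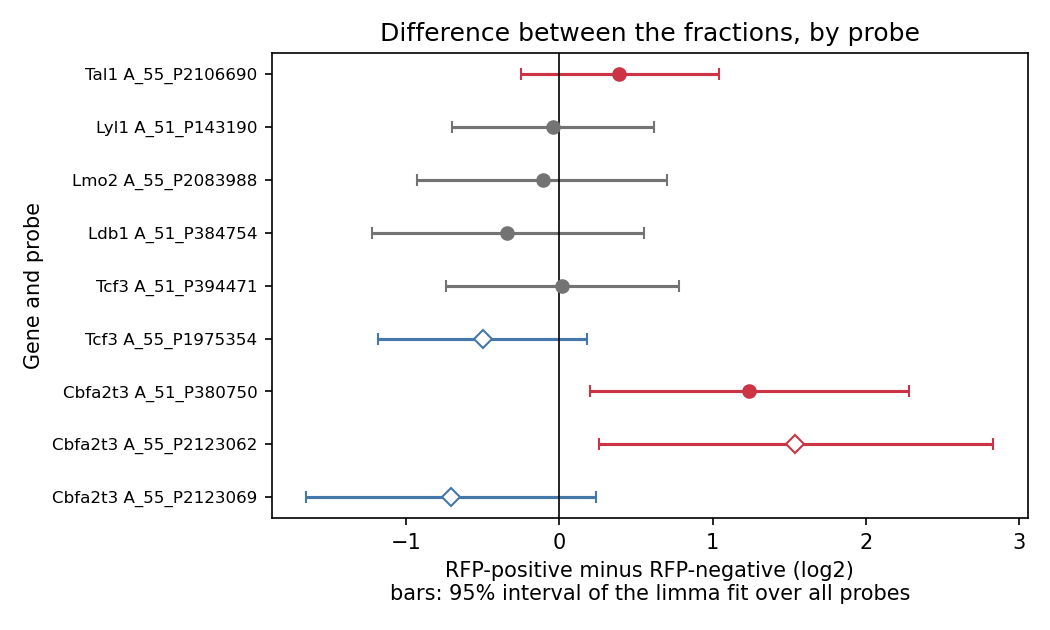
Log2 difference between the fractions, RFP-positive minus RFP-negative (x axis), for each probe (y axis), with 95% intervals from the limma fit over all probes. Filled circles are the probes that stand for a gene and open diamonds the other probes, red where both RFP-positive arrays were higher, blue where both were lower and grey where the fractions overlapped. The intervals of 2 Cbfa2t3 probes, from 0.20 and 0.26 upwards, leave out 0, and none of the 9 passed after adjustment.

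In the probe that stands for each gene, the fractions were apart for Tal1 and Cbfa2t3 alone of the members. The 2 windows of Cbfa2t3 are therefore shown for comparison with Tal1. Both are on the minus strand of GRCm38.p6, chr8:122699110-122699359 and chr8:122678176-122678425, with capitals for E-box and GATA matches as above.
Cbfa2t3 window 1: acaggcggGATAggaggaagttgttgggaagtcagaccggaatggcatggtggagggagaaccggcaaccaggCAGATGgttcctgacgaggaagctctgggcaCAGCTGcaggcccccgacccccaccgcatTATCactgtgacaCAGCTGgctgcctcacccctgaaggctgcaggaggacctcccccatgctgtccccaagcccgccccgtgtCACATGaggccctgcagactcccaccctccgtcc
Cbfa2t3 window 2: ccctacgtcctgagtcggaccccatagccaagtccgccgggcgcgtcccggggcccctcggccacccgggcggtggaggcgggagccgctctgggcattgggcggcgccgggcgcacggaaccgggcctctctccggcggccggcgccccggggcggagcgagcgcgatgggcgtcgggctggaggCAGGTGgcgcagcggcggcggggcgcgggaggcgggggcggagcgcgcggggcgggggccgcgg
Window 1 held 4 E-box and 2 GATA matches and was the richest in E-box matches of the 9 windows. Window 2, of which 83.2% was G or C, held 1 E-box and 0 GATA matches. Over the 9 windows of 5 genes, 5 had an E-box match and 4 a GATA match, beside 66.2% and 53.6% of all windows. Lmo2 had no window. Whether the matches bear on the differences between the fractions was not tested. Ldb1 had 3 windows, of which the third held 1 E-box and 4 GATA matches, and the Tcf3 window held 1 and 3. Which start was used in these cells cannot be read from the arrays.

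The genes around the complex were then read from 6 lists of 55 genes, of which 47 were tested. None passed an adjusted p of 0.05. Without overlap, 17 of the 47 (36.2%) were higher and 3 (6.38%) lower in RFP-positive cells, beside 18.8% and 21.6% of all genes tested. At an unadjusted p under 0.05, 4 were higher and 0 lower, beside 2.77% and 3.72% of all genes. The lists were chosen with earlier results of these data known and were not tested as sets, so these counts only describe them. Some of the gaps behind the counts were small. Among the genes counted as higher, they were 0.01 for Cbfa2t2, 0.02 for Ncor1, 0.03 for Tcf4 and 0.04 for Cbfb and Kdr. The gaps of Ldb2, Cdh5 and Nfe2, smaller or similar, are given below. In 13 of the 47 genes several probes were tested, and 0 of these had probes apart in opposite directions.

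Among proteins that join the complex on DNA, Gata1 and Runx1 had the largest differences. Gata1, the erythroid GATA factor, read −2.03 and −1.45 in RFP-negative cells against −0.89 and 0.29 in RFP-positive cells. Both RFP-positive arrays were higher, by 1.44 (SE 0.48, limma p 0.0311, adjusted p 0.745). Runx1, needed for blood stem cells to emerge from endothelium, read −2.65 and −3.05 against −1.58 and −1.04. It was higher by 1.54 (SE 0.31, limma p 0.00476, adjusted p 0.635), while a second Runx1 probe differed by −0.02 and overlapped. Gata2, the GATA factor of progenitors, overlapped at 2.50 and 1.37 against 2.26 and 1.91. Its difference was 0.15, and that of the GATA cofactor Zfpm1, whose fractions also overlapped, was 0.03. The Ets factors Fli1 and Erg differed by 0.23, without overlap, and by −0.18, with overlap, and Cbfb, the partner of Runx1, by 0.32 without overlap. In all, 4 of these 7 genes were higher without overlap and 0 lower, beside 18.8% and 21.6% of all genes. Their median was 0.23.

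Of the other E proteins and the Id proteins, which bind E proteins and keep them off DNA, 1 of 6 was higher and 1 lower without overlap. The shares of all genes were 18.8% and 21.6%. Id3 read 4.04 and 3.60 in RFP-negative cells against 3.45 and 1.97 in RFP-positive cells. It was lower by a log2 difference of −1.11 (SE 0.55, limma adjusted p 0.745), and RFP-positive replicate 2 was the lowest array. Id1 at −0.04 and Id2 at 0.02 had overlapping fractions, as did the E protein gene Tcf12 at −0.13. Tcf4, a further E protein, was higher by 0.10 without overlap, and by 0.73 in its second probe. The median of this list was −0.08, and it was 0.15 from RFP-positive replicate 1 alone and −0.22 from replicate 2 alone.

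Of the LIM-only, LIM-binding and single-stranded DNA-binding cofactors, 3 of 7 tested were higher and 0 lower without overlap. The shares of all genes were 18.8% and 21.6%, and the median of the list was 0.22. Ldb2, a close relative of Ldb1, read 1.56 and 1.69 against 1.69 and 2.87, with a gap of 0.0029. Its difference was 0.66 (SE 0.44, limma adjusted p 0.755). RFP-positive replicate 2 was the high array, and the other 3 lay close together. Ssbp2 and Ssbp3, which bind Ldb1 and protect it from degradation, were higher by 0.36 and 0.41. Lmo4, another LIM-only protein that competes for Ldb1, overlapped at 0.22, while its second probe was higher by 0.29 without overlap. Lmo3 was never well above background.

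The Eto family, corepressors and coactivators had a median of 0.12 over 14 tested genes. Without overlap, 5 were higher and 1 lower, beside 18.8% and 21.6% of all genes. Of the relatives of Cbfa2t3, Cbfa2t2 was higher by 0.28 without overlap and Runx1t1 differed by −0.38 with overlap. Gfi1, a repressor of blood and endothelial genes, read −0.95 and 0.27 against 0.79 and 0.65, a difference of 1.06 (SE 0.45, limma adjusted p 0.745). Its relative Gfi1b was never well above background. Kat2b, an acetyltransferase, was 2.14-fold higher (limma p 0.0466, adjusted p 0.745), and Rcor1, a subunit of the Kdm1a demethylase complex, was higher by 0.74 on the log2 scale, while its second probe differed by 0.13 and overlapped. Ncor1 was higher by 0.07 and Hdac2 lower, at −0.23, without overlap.

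Of 12 known targets of the complex, 8 were tested, with a median of 0.27. Without overlap, 4 were higher and 1 lower, beside 18.8% and 21.6% of all genes. Of the erythroid targets, Epb42 was never well above background, and Slc4a1 and Klf1 were well above it on RFP-positive replicate 1 alone, at −3.26 and −3.44. Nfe2 was lower by a difference of −0.99 without overlap, with a gap of 0.0033, and Alas2 was at 0.56 with overlap. Myb, a progenitor factor, read −3.61 and −2.76 against −2.35 and −1.44, with RFP-negative replicate 1 not well above background, and was higher by 1.29 (limma p 0.04, adjusted p 0.745). The vessel genes Cdh5, Tek and Kdr were higher by 0.53, 0.40 and 0.13 without overlap, with limma adjusted p between 0.755 and 0.872. A second Kdr probe was higher by 0.50, also without overlap. Cdh5 read 3.76 and 3.65 against 3.76 and 4.70, with a gap of 0.01, so that RFP-positive replicate 1 lay beside the RFP-negative arrays. Tek read 1.86 and 1.74 against 1.95 and 2.45, again with replicate 2 the high array. The receptor gene Kit and the homeobox gene Hhex overlapped at 0.10 and −0.25. Of 7 regulators, relatives and neighbours of Tal1, 5 were tested, and all overlapped in the probe that stands for the gene. Their median was −0.27, and it was 0.12 from RFP-positive replicate 1 alone and −0.53 from replicate 2 alone. Etv2, which switches on Tal1 in mesoderm, overlapped at 3.77 and 3.10 against 3.21 and 2.22, a difference of −0.72 (SE 0.45, limma adjusted p 0.75). Its second probe was lower without overlap, by −0.64. Elf1 overlapped at 0.51, while its second probe was lower without overlap, at −0.54. The neighbours of Tal1 on the chromosome were Stil, which overlapped at −0.27, and Pdzk1ip1, which was well above background on 1 array of each fraction.

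**Figure D3:**
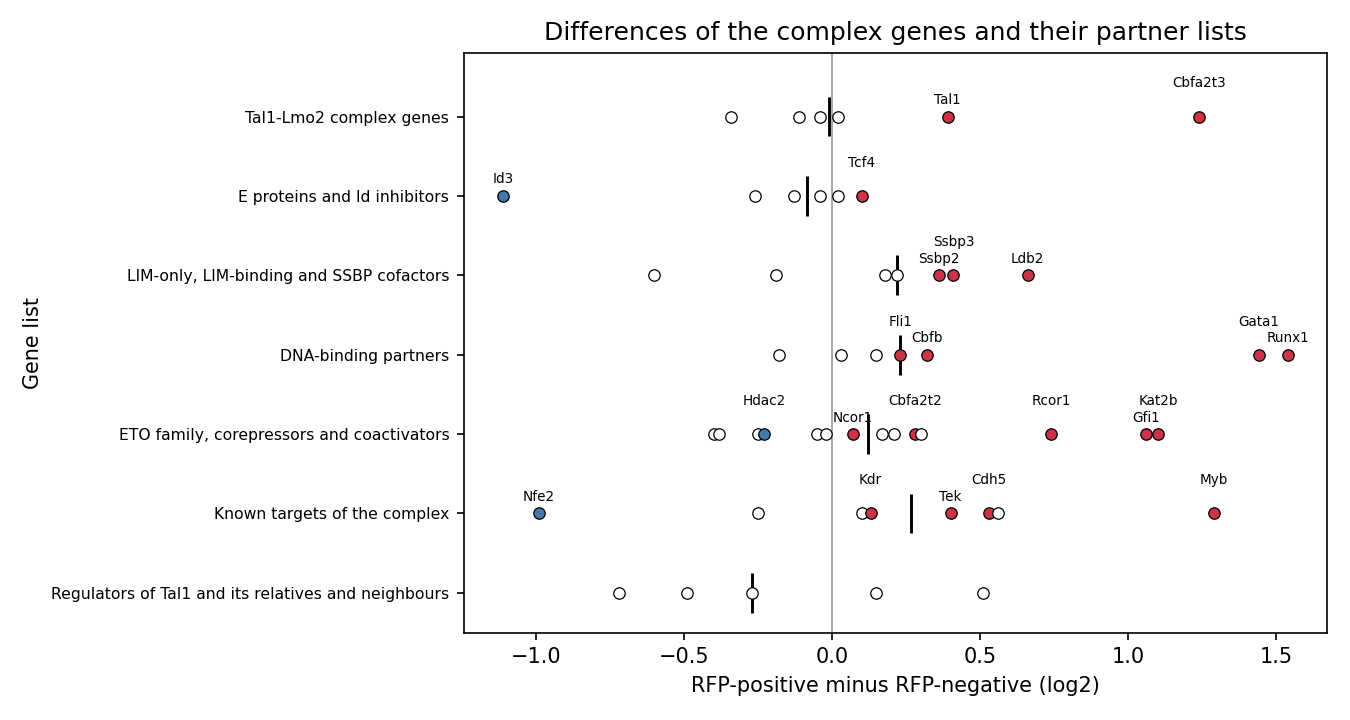
Log2 difference, RFP-positive minus RFP-negative (x axis), of each tested gene in the complex and the 6 partner lists (y axis). Points are genes, red or blue and named where the fractions did not overlap and white where they did, and bars are list medians. Gata1, Runx1, Myb, Kat2b and Gfi1 lie to the right of 1 with Cbfa2t3, and Id3 lies below −1.

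On each array 59305 spots were not controls, and between 55.2% and 59.3% of them were well above background. The 1 probe for Hoxb6 was never well above background, so the labels could not be checked with it, while Kdr was well above background on all arrays, at 4.18 to 4.41. Markers of other cell types also differed in level between the fractions in which Tal1 and Cbfa2t3 were apart. Beside their counts without overlap stand the shares of all genes tested, 18.8% higher and 21.6% lower, and no marker passed a limma adjusted p of 0.05. Of 12 endothelial markers, 6 were higher and 0 lower without overlap, and their summed level, in units of the 75th percentile, was 80.4 to 85.5 in the RFP-negative and 93.0 to 108 in the RFP-positive fraction. Of 13 blood markers, 8 were tested, 4 were higher and 2 lower, and the sums were 2.98 to 3 and 4.18 to 6.2. Hba-x and Gfi1b among them were never well above background. Of 9 tested markers of stroma and fibroblasts, 6 were lower and 0 higher, beside 21.6% and 18.8% of all genes, with sums of 26.0 to 41.6 and 20.7 to 20.9, and Dcn and Postn were never well above background. All 9 adipocyte markers were lower without overlap, beside 21.6% of all genes, with limma adjusted p from 0.447 to 0.732 and sums of 50.4 to 61.5 and 15.9 to 21.1. Of 7 mesoderm markers 4 were higher and 1 lower, with sums of 30 to 31.1 and 35.1 to 36.4, and of 5 tested pluripotency markers 0 were higher and 2 lower, with sums of 486 to 583 and 404 to 502. That last sum is nearly all Nanog, whose fractions overlapped at 9.18 and 8.92 against 8.96 and 8.66, and so does not describe the list. The other sums also lean on their brightest probes, among them Egfl7 and Hbb-bh1, whose fractions overlapped, and Col1a2, Fabp4 and Kdr. Gata1, Runx1, Myb, Klf1 and Gfi1b in the blood list and Cdh5 and Tek in the endothelial list are also in the partner lists. The part of these cells in the differences of Tal1 and Cbfa2t3 was not tested.

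The genes whose pattern over the 4 arrays was most like that of each member were found by the Euclidean distance of log2 values centred over the arrays, among 11975 named genes well above background on all arrays. For Cbfa2t3 the nearest were Jmy, Scube3 and Irf3, at distances of 0.0894, 0.148 and 0.227, and 5 genes lay within 0.25. For Tal1 they were Lipa, Sulf1 and Elp2, with 561 genes within 0.25. For Ldb1 they were Ptgs2, Aplnr and Pabpn1, for Lmo2 Unc5b, Pcyt2 and Ice2, for Lyl1 Bag4, Mmut and Fbxl19, and for Tcf3 Bet1l, Rhoj and Oaz2, with 691, 738, 1627 and 887 genes within 0.25. With 4 arrays, patterns as flat as those of the members other than Cbfa2t3 are shared by many genes.

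**Figure D4:**
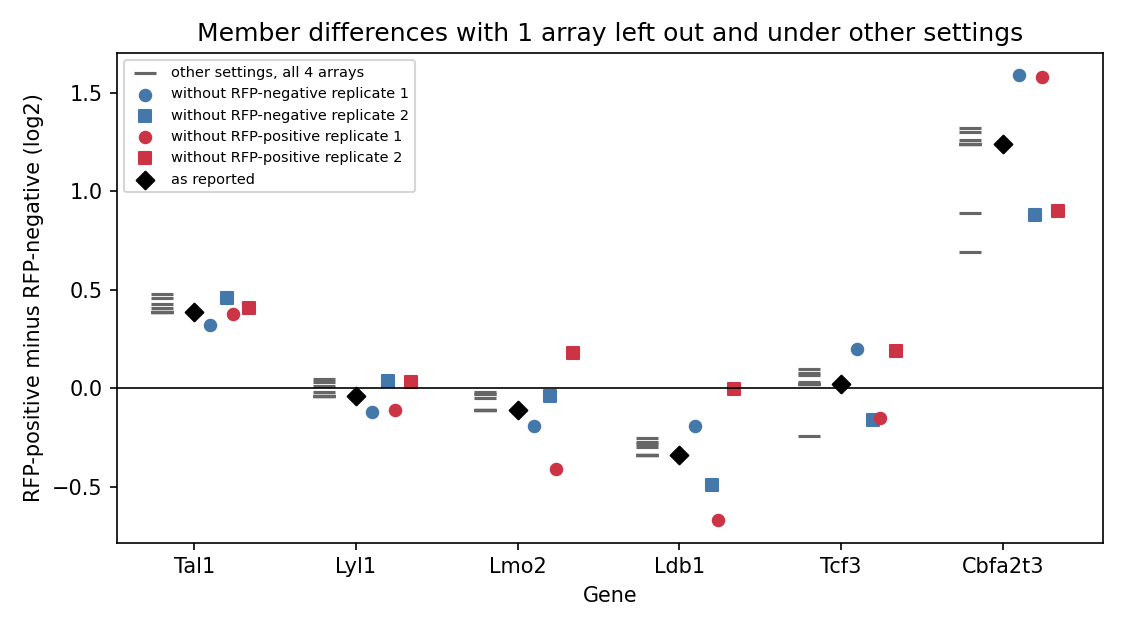
Log2 difference of each member (x axis), RFP-positive minus RFP-negative (y axis), as reported (black diamonds), with 1 array left out (coloured points) and under the other settings (grey dashes). Tal1 stays between 0.32 and 0.48 and Cbfa2t3 above 0, while Lyl1, Lmo2 and Tcf3 lie on both sides of 0 and Ldb1 reaches −0.0031. Single probes other than the one that stands for a gene are not drawn.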

How the data were processed

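Total RNA of sorted cells was labelled with Cy3 and measured on 4 one-colour Agilent arrays, which lay on 1 slide in 1 scan. The intensity values are the scanner's background-subtracted processed signals, which, per the file headers, the authors made with version 10.10.1.1 of Agilent's Feature Extraction. The deposited value table is linear intensity, equal to these signals times 1 constant per array (5.39 to 6.45), with column medians of 136.2, 143.9, 133.9 and 142.3 for the 2 RFP-negative arrays, then the 2 RFP-positive ones. The sources used here do not give the origin of these constants.

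Samples were grouped by the reporter status in their titles. From each array 3671 control spots and the spots marked as outliers (115 to 153) were left out. Log2 signals were scaled to the 75th percentile (183.2 to 249.8), spots of a probe were averaged, and probes were named through RefSeq accessions (assembly GRCm38.p6), which named 27235 of 55681. The probe with the highest mean stood for a gene, and a gene was tested if well above background on both arrays of at least 1 fraction. The test was limma's (3.58.1, R 4.3.3) lmFit and eBayes (no block, 2 residual and 2.77 prior degrees of freedom), two-sided, adjusted by Benjamini-Hochberg across the 13433 genes, and likewise across 30519 probes. The fit was also run on data simulated from its own model, which checks the code and not how well the model describes these arrays. Summaries used pandas 2.3.3 under Python 3.11.15, and figures were drawn with matplotlib 3.10.9.

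Partner genes are named where their fractions did not overlap, with a fixed set of regulators and, for each member, the 3 nearest genes. Genes named besides these in the text as overlapping or not well above background were chosen after their values were seen. The value of 1 listed gene is not reported here. The members and lists were chosen with earlier results of these data known. The alternatives tried were other scalings, background correction, the deposited table, each probe alone or averaged per gene, other filters on dim probes, eBayes trend with and without robust, a block for the replicate number, leaving out each array and other thresholds. Of the array's signal, 0 spots were saturated, and the number of arrays limits the precision.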

Additional observations from a re-analysis of the deposited data

How the results depend on the processing

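Tal1 and Ldb1 kept their direction under all 15 alternatives run for each, at 0.32 to 0.48 and −0.67 to −0.0031, and for 0 of the 6 members did any alternative give an adjusted p under 0.05. The lowest adjusted p was 0.170, for Cbfa2t3 without RFP-positive replicate 1, and the highest for that gene was 0.998. Lyl1 turned to 0.05 with scaling to the median, 0.01 with normexp and 0.03 with the deposited table, and with 1 array left out it ran from −0.12 to 0.04. Lmo2 with 1 array left out ran from −0.41 to 0.18. Tcf3 turned to −0.24 with the mean of its probes and −0.50 in its second probe, and with 1 array left out ran from −0.16 to 0.20. Cbfa2t3 turned to −0.71 in probe A_55_P2123069, was 0.69 with the mean of its probes, and with 1 array left out ran from 0.88 to 1.59. At an unadjusted p under 0.05 the count of members past the threshold was 1 in place of 0. With 1 array left out, 2 to 4 members were higher without overlap, 0 to 3 lower, and 0 to 1 at least 2-fold apart. Fewer arrays make separation easier for any gene, and the shares of all genes given earlier are for all 4 arrays. No such shares are given here with 1 array left out, so these counts cannot be set apart from those of other genes. The members' median was 0.07 with scaling to the median, and with 1 array left out it ran from −0.13 to 0.18. Equal replicate numbers had deviations correlated at 0.0921, and the labels do not say that they pair samples. With the replicate number as a block, the Cbfa2t3 difference stayed at 1.24 (limma adjusted p 0.639), 0 genes passed the threshold and the genes at an unadjusted p under 0.05 went from 872 to 1038. Without RFP-positive replicate 1 that count was 2753, without RFP-negative replicate 2 it was 387, and 0 genes passed an adjusted p of 0.05 in any of these settings. The median of all genes, −0.05 as reported, was between −0.01 and 0.03 under the other scalings.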
